A study of Mus musculus with 26 samples.

Results

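The genes of the cytosolic ribosomal proteins, the protein part of the ribosomes that translate nuclear mRNAs, were followed in S49 cells exposed to a cyclic AMP (cAMP) analog. They were taken as the probe sets annotated with a single gene symbol that begins with Rpl or Rps and a digit, or is Rplp0, Rplp1, Rplp2 or Rpsa. The Rps6k kinases and names ending in -ps or rt were left out. The probe set with the highest mean over all arrays stood for each gene, which gave 48 genes, 22 of the small and 26 of the large subunit, out of 12393 genes measured. These 48 came from 100 probe sets among 22626, and 25 of the 48 genes have 1 probe set, the others up to 6. A further 102 probe sets list a ribosomal protein symbol beside other symbols. They hold 28 ribosomal protein symbols that have no probe set of their own, among them Rplp1, Rpl3, Rpl5 and Rpl10, and these have no value as genes here.

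S49 is a mouse lymphoma line of T cells. Its Kin- variant has no protein kinase A (PKA) activity, as is known of it, and PKA is the chief kinase through which cAMP acts. Kin- and wild-type (WT) cells were each left untreated (0 h, 4 arrays per line) or given 100 µM 8-CPT-cAMP, an analog of cAMP that enters cells, and sampled after 2, 6 or 24 h (3 arrays per time and line), 26 arrays in all. Every group is of S49 cells, and the labels name no other allele or agent. The labels do not say whether the arrays of a group come from separate cultures, so every p-value here reflects the spread among these arrays, and that spread may be technical.

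A ribosome is built from a small (40S) and a large (60S) subunit, and each ribosomal protein is needed in a fixed ratio to the ribosomal RNAs. In mammals many of their mRNAs begin with a pyrimidine tract, the terminal oligopyrimidine (TOP) motif, through which the kinase complex mTORC1 controls their translation. New ribosomal proteins are carried by dedicated chaperones and importers to the nucleolus for assembly, and surplus Rpl5 and Rpl11 can bind Mdm2, the inhibitor of p53.

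The deposited values are processed scores with no stated scale, between 0.375 and 267, and their square root was taken as a log2-like level, between 0.61 and 16.4 over the table. A difference of 1 unit may therefore not be a doubling, and levels of different probe sets are not amounts that can be set against each other. Arrays numbered 1 to 14 and 16 to 47 form separate sets that occur in every group, and 25 of the 48 genes (52.1%) differed between the sets at a limma adjusted p under 0.05, against 39.5% of all genes. Changes within each set are therefore given below for Rps6, Rps9, Rps25, Rpl12, Rpl14, Rpl3l and Rpl7l1. In arrays 1 to 14 each treated group has a single array. For the other genes called in WT cells against 0 h only the array values are given, in order of array number. Of those genes only Rps14 differed between the sets (0.13 higher in arrays 16 to 47, limma adjusted p = 0.00758). All 7 measured T-cell markers, among them Cd3e, Thy1 and Rag1, were above the table's median in both untreated lines, at levels between 8.62 and 12.9. None of the 4 B-cell, 2 erythroid and 4 fibroblast markers was, and of 5 myeloid markers Csf1r was, at 5.78 in untreated Kin- and 5.80 in untreated WT cells.

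The start of the transcript, where the TOP motif of this gene class lies, is shown for 6 genes as examples. They are genes described below, some with the tract and some without. Other genes with large changes, among them Rpl7l1 and Rpl14, are not shown. Each line runs 5′ to 3′ over 45 bases, 30 before and 15 after the start annotated by RefSeq (GRCm38.p6). Capitals mark a tract of C followed by at least 4 pyrimidines that begins within 5 bases of that start.
Rps6 (chr4:86857353-86857397, minus strand): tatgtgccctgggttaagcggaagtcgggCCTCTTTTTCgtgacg
Rps9 (chr7:3704011-3704055, plus strand): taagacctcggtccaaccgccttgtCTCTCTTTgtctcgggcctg
Rps24 (chr14:24490648-24490692, plus strand): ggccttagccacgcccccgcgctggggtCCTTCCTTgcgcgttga
Rpl12 (chr2:32961682-32961726, plus strand): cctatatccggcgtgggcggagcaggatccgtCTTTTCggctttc
Rps25 (chr9:44407684-44407728, plus strand): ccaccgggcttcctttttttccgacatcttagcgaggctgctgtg
Rpl3l (chr17:24727796-24727840, plus strand): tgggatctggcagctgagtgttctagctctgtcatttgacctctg
Rps6, Rps9, Rps24 and Rpl12 have such a tract, of 10, 8, 8 and 6 bases, and Rps25 and Rpl3l have none at the annotated start. The Rps25 line does hold a long run of pyrimidines that begins with C further upstream. It lies outside the window of 5 bases and was not counted. Whether Rps25 transcripts start there was not tested.

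Of the 48 genes 42 had a promoter entry, and 20 of these (47.6%) had the tract, against 18.5% of the 27025 genes in the table. Over 250 bases before and 50 after the start, on both strands, the ETS-type motif CCGGAAG stood in 50% of the 42 promoters and 9.12% of all. The cAMP response element TGACGTCA was found in 2 of the 42, those of Rps9 and Rpl27a (4.76%, against 1.88% of all), and TGACG, which the full element contains, in 45.2% against 21%. AAGATGG, a YY1-type motif, stood in 14.3% against 6.48%, and TATAAA in 11.9% against 14.2%. These matches are letters in a window and say nothing of binding in these cells.

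Most of these probe sets were bright. The mean level of the probe set that stands for the gene was at or above 13 for 34 of them, up to 15.9, close to the highest level in the table, and below 13 for the other 14, down to 1.97 for Rps4l. Whether the scale is compressed at that end was not tested.

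Treated and untreated WT cells were compared to ask whether cAMP alters the mRNA of the translation machinery. For most of these genes no change was detected. At 2 h 2 genes rose and 2 fell, where 7.25% of all genes rose and 8.44% fell. At 6 h 1 rose and 5 fell, where 11% of all genes rose and 11.1% fell, and at 24 h 8 rose and 5 fell, where 16.3% rose and 16.3% fell. A call is a limma adjusted p under 0.05 over all 22626 probe sets, and 34 of the 48 genes were called at none of the 3 times. The share of all genes called at none of them was not computed, and at 24 h alone 32.5% of all genes were called. The count of 34 thus cannot be called particular to ribosomal protein genes. The balance at 24 h depended on the processing: after quantile normalization between arrays 5 rose and 6 fell, and with array weights 16 rose and 5 fell. With a block for series of consecutive array numbers 1 rose and 2 fell at 2 h, and 9 rose and 4 fell at 24 h. Shares of all genes were not computed under these alternatives, so whether calls moved more for the 48 genes than for others is not known. Rps6 was called higher and Rpl12 and Rpl7l1 lower at all 3 times.

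The median change of the 48 genes was 0.02 at 2 h, 0.01 at 6 h and 0.08 at 24 h, and that of all genes 0.05, −0.03 and −0.01. After quantile normalization the medians of the 48 genes were −0.01, −0.01 and 0.01, so the small shift at 24 h was not kept and the signs at 2 and 6 h turned. The middle 50% of the changes of the 48 genes lay between 0.00 and 0.16 at 24 h, and those of all genes between −0.14 and 0.17. In RNA from whole cultures, fewer cells of a type and less RNA per cell cannot be told apart.

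Each WT array was also set against the untreated WT means. Between 21 and 29 of the 48 genes stood above them in the arrays at 0 h, between 26 and 31 at 2 h, between 22 and 25 at 6 h and between 33 and 36 at 24 h. The median deviation of the 48 genes lay between −0.01 and 0.01 in the 0 h arrays and between 0.04 and 0.10 in the 24 h arrays, where that of all genes lay between −0.07 and 0.03. Untreated Kin- arrays, set against the untreated Kin- means in the same way, had between 17 and 33 of the 48 genes above them, and the highest of these counts equalled the lowest of the WT arrays at 24 h. In both lines the untreated arrays are part of the means they were set against, so their deviations cancel out for each gene. Their counts and medians are therefore not an independent baseline for the treated arrays.

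**Figure D1:**
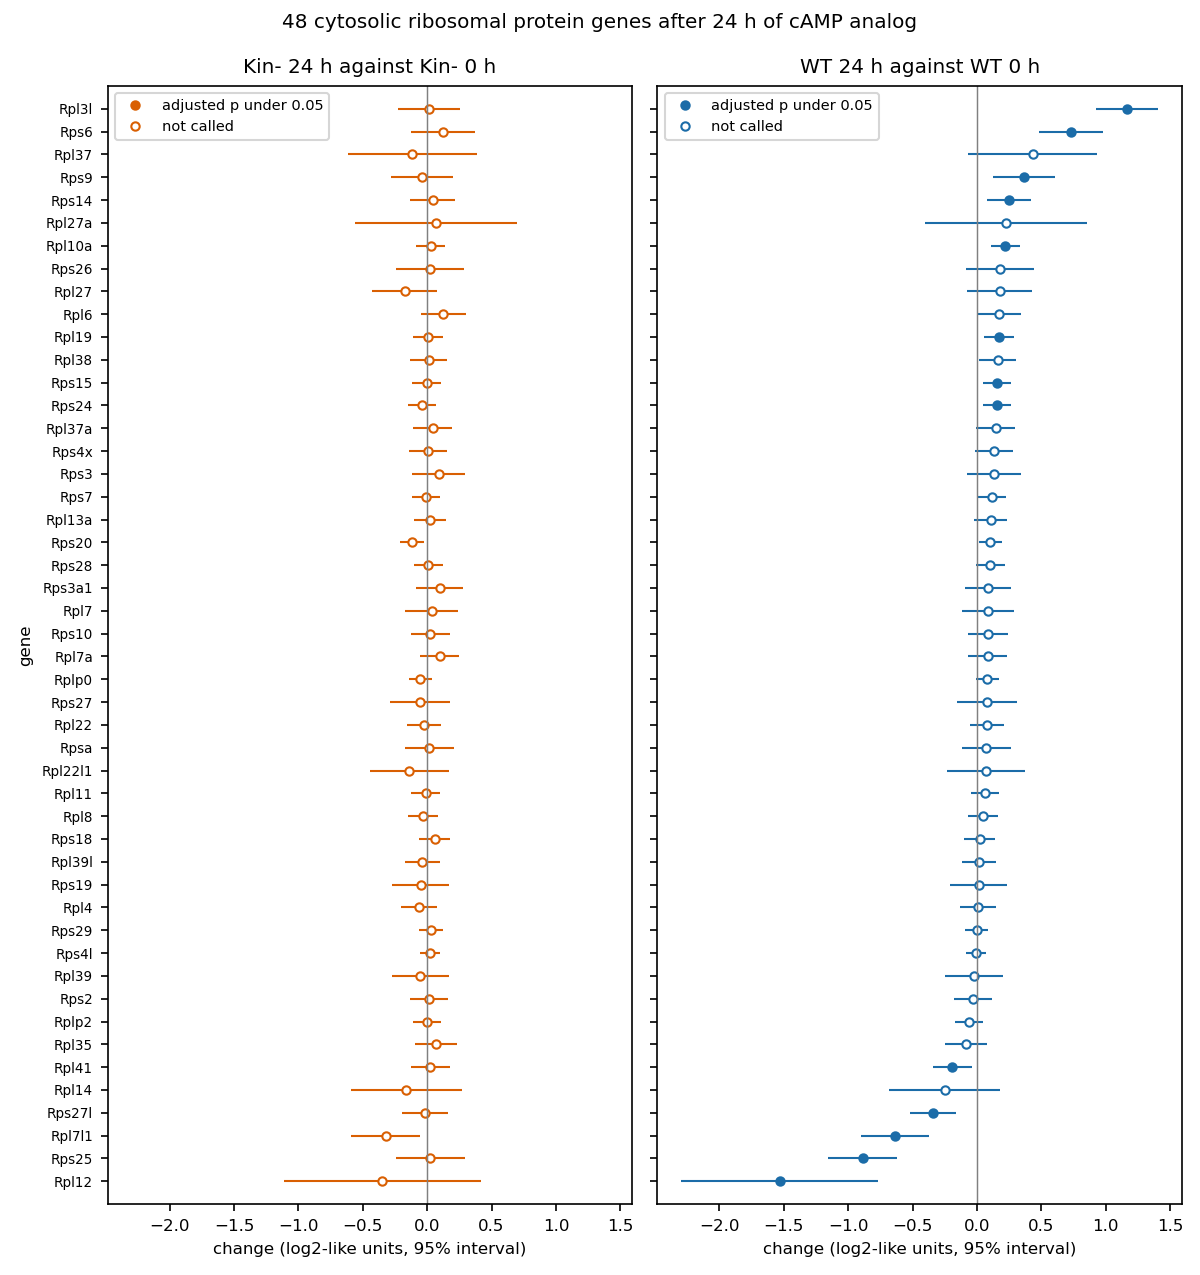
Change of each of the 48 genes after 24 h of analog in Kin- cells (left) and WT cells (right), in log2-like units with the 95% interval of the limma fit; filled points passed an adjusted p of 0.05. In WT cells 8 filled points lie right of 0 and 5 left of it, Rpl3l highest and Rpl12 lowest, and in Kin- cells no point is filled.

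Among the small-subunit genes 5 rose, 2 fell and 15 were not called at 24 h in WT cells, with a median change of 0.09. Thus 31.8% were called, close to the 32.5% of all genes. Rps6 encodes the protein that the S6 kinases phosphorylate. Its level in WT cells was 8.67, 8.42, 8.63 and 8.70 at 0 h, 8.98, 9.04 and 9.20 at 2 h, 8.88, 9.14 and 9.04 at 6 h and 9.24, 9.38 and 9.39 at 24 h. Every treated array lay above every untreated one. The rise was 0.47 ± 0.118 units (SE; adjusted p = 0.00853) at 2 h, 0.42 (adjusted p = 0.0144) at 6 h and 0.73 ± 0.118 (adjusted p = 4.05e-05) at 24 h. At 24 h it was 0.69 within arrays 1 to 14 and 0.72 within arrays 16 to 47. The 2 h call was lost without WT 2 h array 37 (0.41, adjusted p = 0.0603). The 6 h call was lost without WT 0 h array 13 or WT 6 h arrays 18 or 38 (0.35 to 0.40, adjusted p 0.0524 to 0.0873). A second single-symbol probe set of Rps6, with a mean level of 3.12, was not called at 24 h (−0.02, adjusted p = 0.989). The probe sets annotated jointly to Rps6 and the pseudogene Rps6-ps4 had 24 h changes between 0.09 and 0.38, and 4 of these 9 were called higher.

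Rps9, a core protein of the small subunit, had 13.69, 13.73 and 13.85 in WT cells at 24 h, against 13.54, 13.58, 13.25 and 13.19 in untreated WT cells. The 24 h arrays were all above the untreated ones, which fall apart by array set, the first pair higher. The rise was 0.37 ± 0.115 (adjusted p = 0.0176), 0.14 within arrays 1 to 14 and 0.57 within arrays 16 to 47. It was not called without WT 0 h array 16, WT 0 h array 36 or WT 24 h array 39 (0.30 to 0.32, adjusted p 0.0574 to 0.0869). The other single-symbol probe sets of Rps9 disagree: one with a mean level of 11.5 rose by 0.32 (adjusted p = 0.0154) and one with a mean level of 7.15 fell by 1.56 (adjusted p = 0.00325). The mean over the 3 probe sets had a change of −0.29 (adjusted p = 0.19), so the direction of Rps9 depends on the probe set.

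Rps14, Rps15 and Rps24 had small rises at 24 h. Rps14, whose loss is known from a form of myelodysplastic syndrome, rose by 0.25 ± 0.0826 (adjusted p = 0.026), with 13.98, 14.22 and 14.15 in WT cells at 24 h against 13.85, 13.91, 13.89 and 13.83 in untreated WT cells. The gap was smaller in arrays 1 to 14 (13.98 against 13.85 and 13.91) than in arrays 16 to 47 (14.22 and 14.15 against 13.89 and 13.83). Rps15, a protein near the decoding centre, rose by 0.16 (adjusted p = 0.026), with 14.53, 14.53 and 14.62 at 24 h against 14.38, 14.47, 14.36 and 14.40 untreated. Rps24, which is mutated in some families with Diamond-Blackfan anaemia, rose by 0.15 (adjusted p = 0.0271), with 15.23, 15.18 and 15.23 at 24 h against 15.01, 15.06, 15.09 and 15.08 untreated. The 24 h and untreated arrays do not overlap for any of these 3 genes, yet each call was lost when single WT arrays were left out. These were WT 0 h arrays 1 and 36 and WT 24 h arrays 19 and 39 for Rps14, WT 0 h arrays 1 and 16 and WT 24 h array 39 for Rps15, and WT 0 h arrays 1 and 13 and WT 24 h arrays 4 and 39 for Rps24. The changes were then 0.19 to 0.24, 0.13 to 0.15 and 0.14 to 0.15, in that order of genes, with adjusted p between 0.0513 and 0.15. Other single-symbol probe sets with mean levels above 13 were not called at 24 h for Rps14 (0.19, adjusted p = 0.157) and Rps15 (0.13, adjusted p = 0.228). Those of Rps24 had 0.05 and 0.07 (adjusted p = 0.76 and 0.705), and 0.20 in the one that was called (adjusted p = 0.0326). After quantile normalization Rps15 had 0.068 (adjusted p = 0.344) and Rps24 0.023 (adjusted p = 0.854), and with the block for array series Rps24 had 0.15 (adjusted p = 0.0613). Rps15 and Rps24 were also higher at 24 h than at 6 h, by 0.19 (adjusted p = 0.0235) and 0.17 (adjusted p = 0.033), and with Rpl3l they were the 3 of the 48 genes that rose between these times, while none fell. With the block for array series 8 of the 48 rose between these times. After quantile normalization 2 rose and 1 fell, and neither Rps15 (0.10, adjusted p = 0.189) nor Rps24 (0.080, adjusted p = 0.37) was called. Of all genes 9.85% were higher and 9.84% lower at 24 h than at 6 h (19.7% in all).

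Rps25, which is needed by some viral and cellular RNAs that start translation at internal sites, had the largest fall of the small subunit. Its level in WT cells was 10.06, 10.20, 10.28 and 10.22 at 0 h, 9.86, 10.36 and 9.97 at 2 h, 9.60, 9.64 and 9.45 at 6 h and 9.50, 9.02 and 9.39 at 24 h. The 6 and 24 h arrays lay wholly below the untreated ones, while the 2 h arrays overlapped them. The change was −0.13 (adjusted p = 0.577) at 2 h, and the level fell by 0.63 ± 0.129 (adjusted p = 0.00103) at 6 h and by 0.89 ± 0.129 (adjusted p = 1.06e-05) at 24 h. At 24 h the change was −0.63 within arrays 1 to 14 and −1.04 within arrays 16 to 47. A probe set annotated jointly to Rps25 and the predicted genes Gm6988 and Gm4963, with a mean level of 14.4, was not called, at −0.02 (adjusted p = 0.904) for 6 h and −0.11 (adjusted p = 0.39) for 24 h.

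Rpsa, the laminin receptor precursor that is also a small-subunit protein, had 14.05, 14.05 and 14.06 in WT cells at 24 h, against 13.89, 14.13, 13.93 and 13.98 in untreated WT cells, which overlap. Its change was 0.07 ± 0.0911 (adjusted p = 0.743).

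Among the large-subunit genes 3 rose, 3 fell and 20 were not called at 24 h, with a median change of 0.08. Thus 23.1% were called, below the 32.5% of all genes. The stalk, which recruits the elongation factors, was measured through Rplp0 and Rplp2, and through Rpl12 at its base. Rplp0, the anchor of the stalk, had 15.26, 15.27 and 15.18 in WT cells at 24 h, against 15.15, 15.22, 15.15 and 15.11 in untreated WT cells. Its change was 0.08 ± 0.0441 (adjusted p = 0.209). Rplp2, one of the acidic stalk proteins, had 15.33, 15.39 and 15.31 at 24 h against 15.38, 15.48, 15.43 and 15.34 untreated, a change of −0.06 ± 0.0516 (adjusted p = 0.469). The groups overlap for both.

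Rpl12, which lies beside the stalk and helps factors bind, had the largest change of the 48 genes in size at each of the 3 times. Its level in WT cells was 7.15, 7.53, 7.23 and 7.56 at 0 h, 6.47, 6.28 and 5.76 at 2 h, 6.25, 4.93 and 5.01 at 6 h and 7.12, 5.04 and 5.34 at 24 h. All treated arrays lay below the untreated ones, although array 4 at 24 h (7.12) was close to the lowest untreated array (7.15). The level fell by 1.20 ± 0.366 (adjusted p = 0.0311) at 2 h, fell by 1.97 ± 0.366 (adjusted p = 0.000421) at 6 h and fell by 1.53 ± 0.366 (adjusted p = 0.00226) at 24 h. Within arrays 1 to 14 the changes were −0.87, −1.09 and −0.22, and within arrays 16 to 47 −1.37, −2.42 and −2.20. The 2 h call was lost without WT 0 h arrays 13 or 36 or WT 2 h arrays 17 or 37 (−1.25 to −0.99, adjusted p 0.0656 to 0.166). Probe sets annotated jointly to Rpl12 and predicted genes, with mean levels of 14.8 and 14.2, were not called at 6 h, at 0.05 (adjusted p = 0.708) and −0.10 (adjusted p = 0.375).

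Rpl10a, a protein that is enriched on the ribosomes of some mRNAs, rose at 2 h by 0.18 ± 0.0536 (adjusted p = 0.0287) and at 24 h by 0.22 ± 0.0536 (adjusted p = 0.00267). Its level in WT cells was 13.85, 13.77, 13.83 and 13.88 at 0 h, 13.97, 14.03 and 14.03 at 2 h, 13.92, 14.01 and 13.86 at 6 h and 13.98, 13.99 and 14.19 at 24 h. The 6 h arrays overlapped the untreated ones, with a change of 0.10 (adjusted p = 0.277). Neither the 2 h nor the 24 h arrays did. The 2 h call was lost without WT 0 h arrays 13 or 16 or WT 2 h arrays 17 or 37 (0.16 to 0.18, adjusted p 0.0573 to 0.105), and with the block for array series (0.16, adjusted p = 0.0763).

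Rpl19, a protein at the rim of the exit tunnel, rose by 0.17 ± 0.0546 (adjusted p = 0.0204) at 24 h. It had 14.50, 14.65 and 14.57 in WT cells at 24 h, against 14.37, 14.46, 14.44 and 14.35 in untreated WT cells, with no overlap. The call was lost without WT 0 h arrays 1 or 36 or WT 24 h arrays 19 or 39 (0.13 to 0.17, adjusted p 0.0508 to 0.134), and after quantile normalization (0.077, adjusted p = 0.234). Rpl41, the smallest ribosomal protein, was called lower at 24 h by 0.19 ± 0.0715 (adjusted p = 0.0493), with 14.14, 14.30 and 14.05 against 14.25, 14.50, 14.40 and 14.27 in untreated WT cells. These groups overlap, and the call was lost without any one of 19 of the 26 arrays (−0.19 to −0.14, adjusted p 0.0502 to 0.271) and with the block for array series (−0.14, adjusted p = 0.142). Another single-symbol probe set of Rpl41, with a mean level of 13.8, was not called at 24 h (−0.04, adjusted p = 0.959). One with a mean level of 7.79 fell by 1.08 (adjusted p = 0.000132), and a further dim one is given below.

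Rpl14, a surface protein of the large subunit, fell at 6 h by 0.72 ± 0.207 (adjusted p = 0.0159). Its level was 9.16, 8.43 and 8.44 in WT cells at 6 h, against 9.67, 9.71, 8.92 and 9.27 in untreated WT cells. Array 3 at 6 h lies above the lowest untreated array, and the change was −0.53 within arrays 1 to 14 and −0.66 within arrays 16 to 47. The call was lost without WT 0 h arrays 1 or 13 or WT 6 h arrays 18 or 38 (−0.62 to −0.59, adjusted p 0.0562 to 0.104). Probe sets annotated jointly to Rpl14 and the pseudogene Rpl14-ps1, with mean levels above 13, were not called at 6 h. Their changes lay between −0.20 and −0.12 (adjusted p 0.123 to 0.703). Rpl11, which binds Mdm2 together with Rpl5, had 14.68, 14.58 and 14.70 in WT cells at 24 h, against 14.61, 14.65, 14.53 and 14.58 in untreated WT cells, a change of 0.06 ± 0.0535 (adjusted p = 0.524).

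By place in the ribosome, 1 of 5 measured genes of the exit tunnel and its rim (Rpl19), 1 of 4 of mRNA entry and decoding (Rps15) and 1 of 6 of the platform and mRNA exit (Rps14) rose at 24 h, and none fell, where 16.3% of all genes rose and 16.3% fell. Counts of 1 gene near that share show nothing about these places. Of 11 measured genes known from Diamond-Blackfan anaemia 1 rose (Rps24), none fell and 10 were not called, with a median change of 0.09.

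Paralogs replace a ribosomal protein or stand beside it, often in a single tissue, and 6 of them were measured. At 24 h in WT cells 1 of the 6 rose and 2 fell, where 16.3% of all genes rose and 16.3% fell. Rpl3l, the paralog of Rpl3 that is known from heart and skeletal muscle, had levels in WT cells of 3.26, 3.25, 3.24 and 3.25 at 0 h, 3.24, 3.35 and 3.32 at 2 h, 3.25, 3.24 and 3.34 at 6 h and 4.93, 4.15 and 4.18 at 24 h. The 24 h arrays stood above all others, array 4 the highest. The rise was 1.17 ± 0.116 (adjusted p = 7.47e-08) against untreated cells and 1.14 (adjusted p = 9.77e-07) against 6 h. Within arrays 1 to 14 the rise against untreated cells was 1.67 and within arrays 16 to 47 0.91. Its untreated level lay below the table's median, and its 24 h levels too lay below the medians of those arrays (5.51 to 5.53). Rpl3 itself is not among the 48 genes.

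Rpl7l1, a paralog of Rpl7, had levels in WT cells of 10.57, 10.52, 10.68 and 10.58 at 0 h, 10.15, 10.14 and 9.93 at 2 h, 10.13, 10.02 and 9.66 at 6 h and 10.19, 9.74 and 9.92 at 24 h. All treated arrays lay below all untreated ones. The level fell by 0.51 ± 0.128 (adjusted p = 0.00803) at 2 h, fell by 0.65 (adjusted p = 0.000709) at 6 h and fell by 0.64 (adjusted p = 0.000437) at 24 h. The 24 h change was −0.35 within arrays 1 to 14 and −0.80 within arrays 16 to 47, and the 2 h call was lost without WT 2 h array 37 (−0.44, adjusted p = 0.058). Rpl7 had a change of 0.09 ± 0.0974 (adjusted p = 0.687) at 24 h, with 15.30, 15.14 and 15.21 against 15.29, 15.18, 15.01 and 15.05 in untreated WT cells, which overlap.

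Rps27l, the paralog of Rps27 that p53 can activate, fell by 0.26 ± 0.0856 (adjusted p = 0.0362) at 6 h and by 0.34 ± 0.0856 (adjusted p = 0.00345) at 24 h. Its level in WT cells was 13.06, 13.14, 13.06 and 13.08 at 0 h, 12.90, 13.17 and 13.10 at 2 h, 12.86, 12.76 and 12.85 at 6 h and 12.86, 12.66 and 12.71 at 24 h. The 6 and 24 h arrays lay below all untreated ones and the 2 h arrays overlapped them. The 6 h call was lost without any one of the 7 WT arrays at 0 or 6 h (−0.28 to −0.23, adjusted p 0.0542 to 0.149), and after quantile normalization (−0.22, adjusted p = 0.0961). Rps27 had 6.56, 6.79 and 6.48 at 24 h against 6.77, 6.45, 6.53 and 6.39 untreated, a change of 0.08 (adjusted p = 0.798). A much brighter probe set annotated jointly to Rps27 and Rps27rt, with a mean level of 15.2, was not called either (0.15, limma adjusted p = 0.182).

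The other paralogs were not called at any time. Rpl22l1 had 13.33, 12.92 and 13.03 in WT cells at 24 h against 13.28, 12.94, 12.81 and 13.06 in untreated WT cells, a change of 0.07 ± 0.147 (adjusted p = 0.924). Rpl22, which is required for the development of alpha-beta T cells, had a change of 0.08 ± 0.0639 (adjusted p = 0.501). Rpl39l, known from testis, had a change of 0.01 ± 0.0641 (adjusted p = 0.986), and Rpl39 one of −0.02 ± 0.107 (adjusted p = 0.987). The Rpl39 probe set is dim, with a mean level of 8.08. One annotated jointly to Rpl39 and the predicted gene Gm32211, with a mean level of 14.9, had 0.05 (limma adjusted p = 0.731). Rps4l had a change of −0.01 ± 0.0376 (adjusted p = 0.989), and Rps4x, the X-linked gene that it resembles, 0.13 ± 0.0707 (adjusted p = 0.194). The mean levels of Rpl39l and Rps4l in untreated WT cells were 2.82 and 1.97, far below the medians of those arrays (5.44 to 5.48). At such low levels a small change does not show that the mRNA is stable.

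**Figure D2:**
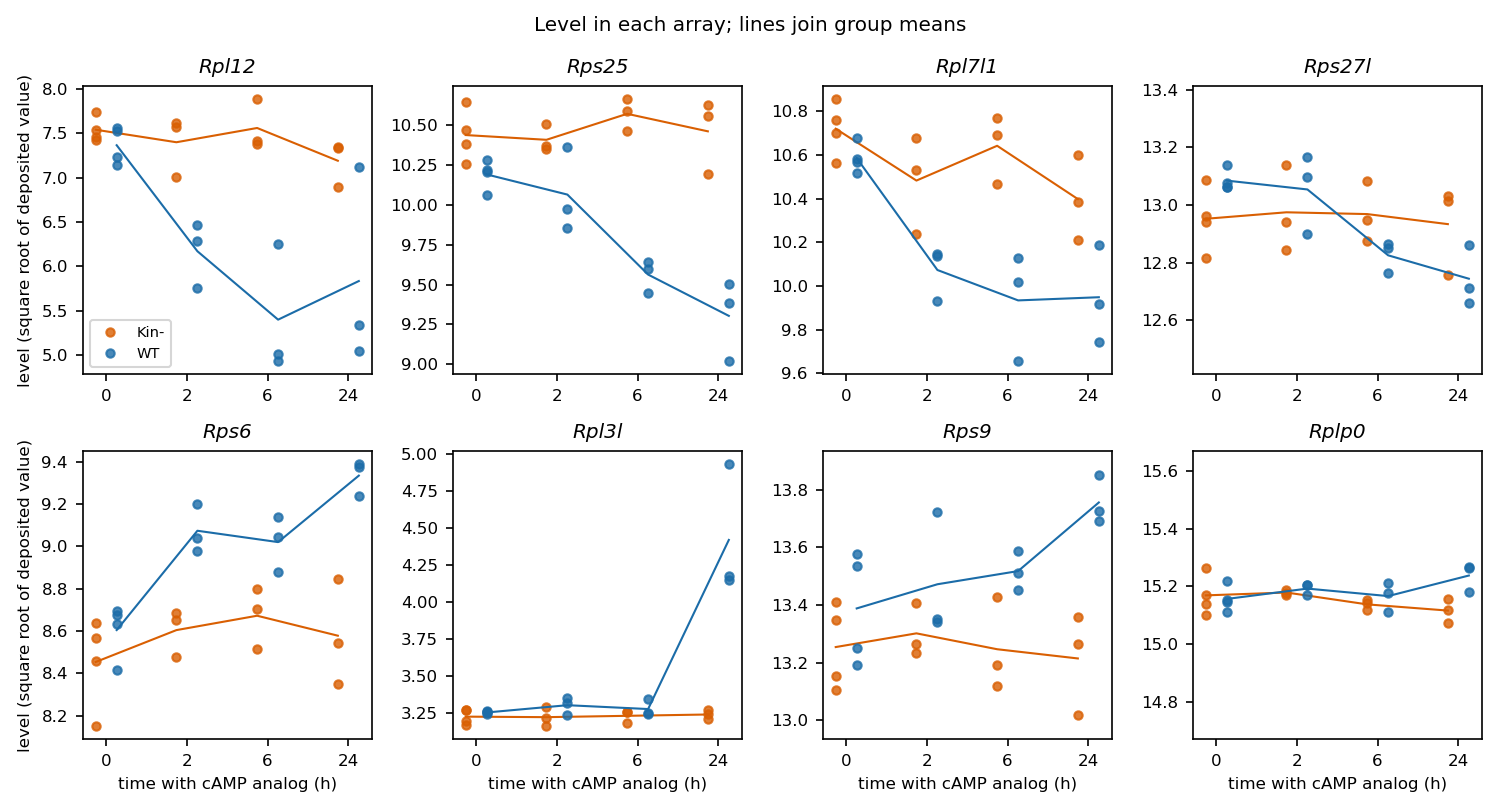
Level of 8 of the 48 genes in each array (square root of the deposited value; the axes differ in range and do not start at 0) by time with the analog, with times evenly spaced; points are arrays, Kin- on the left and WT on the right of each time, and lines join group means. At 24 h Rpl12, Rps25, Rpl7l1 and Rps27l were lower and Rps6, Rpl3l and Rps9 higher in WT cells, while Rplp0 was not called.

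In Kin- cells the analog was compared with untreated Kin- cells to ask which responses need PKA. Of the 48 genes 0 were called in limma at 2, 6 or 24 h, where 0% of all genes were called. At an unadjusted p under 0.05 there were 1, 0 and 2 of the 48 genes. Rpl12 had 7.33, 6.89 and 7.34 in Kin- cells at 24 h, against 7.74, 7.54, 7.42 and 7.46 in untreated Kin- cells, all below, with a change of −0.35 ± 0.366 (adjusted p = 1). Rpl7l1 had a change of −0.32 ± 0.128 (adjusted p = 1), with 10.60, 10.21 and 10.38 at 24 h against 10.70, 10.86, 10.56 and 10.76 untreated, which overlap. The changes of Rps25, Rps6 and Rpl3l in Kin- cells at 24 h were 0.02 ± 0.129, 0.12 ± 0.118 and 0.01 ± 0.116 (adjusted p = 1 each).

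The difference of the responses was tested in the same fit, as the WT response minus the Kin- response. At 2 h 0 of the 48 genes passed in limma (2 at an unadjusted p under 0.05), where 3.7% of all genes passed above 0 and 4.02% below (7.71% in all). At 6 h 3 passed, all below 0, where 5.91% of all genes passed above 0 and 6.54% below. Rpl12 had a response of 0.02 in Kin- and −1.97 in WT cells, a difference of −1.99 ± 0.518 (adjusted p = 0.0147). For Rps25 the responses were 0.13 in Kin- and −0.63 in WT cells, a difference of −0.76 ± 0.182 (adjusted p = 0.00797). Those of Rpl7l1 were −0.08 in Kin- and −0.65 in WT cells, a difference of −0.57 ± 0.181 (adjusted p = 0.046), which was lost without any one of 16 arrays (−0.61 to −0.43, adjusted p 0.0516 to 0.17). The difference of Rpl12 was lost without WT 6 h arrays 18 or 38 (−1.75 and −1.79, adjusted p = 0.0561 and 0.0509).

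At 24 h 3 differences passed above 0 and 1 below, where 11.7% and 12% of all genes did. With the block for array series 5 passed above 0 and 2 below, and after quantile normalization 2 above and 2 below. Rpl3l had a difference of 1.15 ± 0.164 (adjusted p = 2.05e-05), from responses of 0.01 in Kin- and 1.17 in WT cells. Rps6 had 0.61 ± 0.167 (adjusted p = 0.0107), with responses of 0.12 in Kin- and 0.73 in WT cells, and Rps25 −0.91 ± 0.182 (adjusted p = 0.000718), with 0.02 in Kin- and −0.89 in WT cells. The fourth was Rps20, a protein of the small subunit's head, with 0.22 ± 0.0629 (adjusted p = 0.0122). Its responses were −0.12 in Kin- and 0.10 in WT cells, and neither was called by itself. Another bright probe set of Rps20, with a mean level of 15.15, had responses of the same signs, −0.04 in Kin- and 0.14 in WT cells. On a dimmer probe set of Rps20, with a mean level of 4.71, the difference was −0.59 (adjusted p = 0.396). After quantile normalization the difference on the probe set that stands for the gene was 0.12 (adjusted p = 0.231). For Rpl12 and Rpl7l1 the differences at 24 h were −1.18 (adjusted p = 0.128) and −0.31 (adjusted p = 0.291).

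The untreated lines, Kin- set against WT, show whether the cells start alike. Of the 48 genes 0 were called in limma (2 at an unadjusted p under 0.05), where 1.74% of all genes were higher and 1.73% lower in Kin- (3.48% in all), and the differences lay between −0.27 for Rps27 and 0.29 for Rpl14.

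Several genes have bright and dim probe sets, and their changes differed. The level of 13 that divides them was set after the values had been seen. Among the single-symbol probe sets, 62 were at or above 13, and all 62 changes at 6 h lay within 0.25 units of 0, with 1 called lower. Of the 38 below 13, 14 were called lower and 1 higher at 6 h, with 19 within 0.25 units of 0. At 24 h 12 of the 62 were higher and 1 lower, and 4 of the 38 higher and 12 lower. Of the probe sets with several symbols, 75 are at or above 13, of which 16 were higher and none lower at 24 h, and 27 are below it, of which 8 were higher and 4 lower. Of all genes 11% were higher and 11.1% lower at 6 h, and 16.3% higher and 16.3% lower at 24 h. Shares over all probe sets of like level were not computed, so these counts cannot be called particular to ribosomal protein genes.

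There are 13 genes with single-symbol probe sets on both sides of 13, with 32 bright and 19 dim probe sets. At 6 h in WT cells the changes of the dim ones lay between −1.84 and 0.31 and those of the bright ones between −0.20 and 0.13, with medians of −0.51 for dim and 0.01 for bright. In WT cells every dim probe set had a change below every bright one in 6 of the 13 genes at 2 h, 11 of 13 at 6 h and 11 of 13 at 24 h. In Kin- cells at 24 h this held for 8 of 13, more than in WT cells at 2 h. The medians were −0.20 for dim and 0.00 for bright probe sets in WT cells at 2 h, and −0.05 for dim and 0.02 for bright ones in Kin- cells at 24 h. For Rps9 a dim probe set with a mean level of 7.15 fell by 1.84 at 6 h (adjusted p = 0.00138) and fell by 1.56 at 24 h (adjusted p = 0.00325), while the bright one that stands for the gene had 0.13 and 0.37. For Rpl41 one with a mean level of 7.00 had changes of −1.39 (adjusted p = 0.00027) at 6 h and −1.57 (adjusted p = 2.84e-05) at 24 h. For Rps24 one with a mean level of 7.82 fell by 1.45 (adjusted p = 0.000274) at 6 h and had −0.34 (adjusted p = 0.43) at 24 h. For Rpl22 one with a mean level of 8.12 fell by 0.75 (adjusted p = 0.00642) at 6 h and rose by 0.83 (adjusted p = 0.00161) at 24 h. These examples were chosen after their values were seen. What the dim probe sets detect was not tested. Among the 48 probe sets that stand for genes, all 34 at or above 13 had changes within 0.25 units at 2 and 6 h and 33 of 34 at 24 h, Rps9 being the exception, and the falls of Rpl12, Rps25, Rpl7l1, Rps27l and Rpl14 came from probe sets below 13. Rps27l, at a mean of 12.95, lies just under that level and at 13.08 in untreated WT cells above it. The fall of Rpl41 at 24 h came from a probe set above 13, at 14.26.

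**Figure D3:**
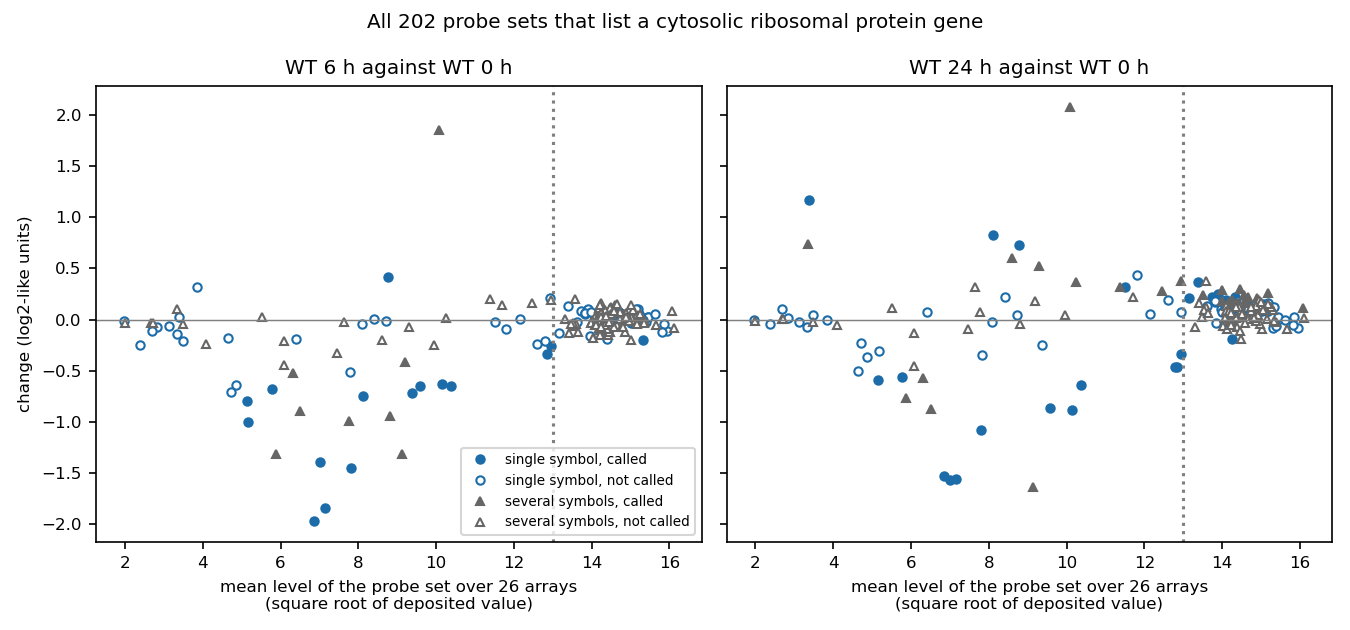
Change at 6 h (left) and 24 h (right) in WT cells against the mean level over 26 arrays for the 100 single-symbol and 102 several-symbol probe sets that list a cytosolic ribosomal protein; filled symbols passed an adjusted p of 0.05 and the dotted line marks a level of 13. Right of the line the changes stay close to 0, with 12 and 16 higher calls at 24 h, and the large falls lie left of it.

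Genes that work with the cytosolic ribosomal proteins were counted from lists. Of 74 measured mitochondrial ribosomal protein genes, which serve the separate ribosome of mitochondria, 15 fell at 2 h, 39 at 6 h and 51 at 24 h, and 0, 0 and 2 rose, where 8.44%, 11.1% and 16.3% of all genes fell and 7.25%, 11% and 16.3% rose, with median changes of −0.29, −0.46 and −0.59, where those of all genes were 0.05, −0.03 and −0.01. Of 28 chaperones and importers of ribosomal proteins 10, 20 and 20 fell and 0, 1 and 1 rose, with medians of −0.28, −0.66 and −0.80. At 24 h Grwd1, a chaperone of Rpl3, fell by 2.23 (adjusted p = 8.93e-06) and the importin gene Ipo5 fell by 1.66 (adjusted p = 1.6e-08), and the one that rose was Zfp622, a maturation factor of the large subunit, by 0.43 (adjusted p = 0.000408). Neither list had a call in Kin- cells at 24 h, where 0% of all genes were called. The difference of responses at 24 h passed below 0 for 35 of the 74 and 17 of the 28 genes, where it did for 12% of all genes.

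The other TOP mRNAs, which share the pyrimidine tract and encode mostly translation factors, had 7 of 20 higher and 3 lower at 24 h, where 16.3% of all genes were higher and 16.3% lower, with a median change of 0.13. Among them Vim, an intermediate filament gene, rose by 1.08 (adjusted p = 0.0193) and the elongation factor gene Eef2 by 0.43 (adjusted p = 0.00212), and Nap1l1, a histone chaperone gene that is also on the chaperone list, fell by 1.16 (adjusted p = 2.63e-10) and the elongation factor gene Eef1d by 0.86 (adjusted p = 0.00015). Fau, which encodes the small-subunit protein RPS30 as a fusion, rose by 0.36 (adjusted p = 4.59e-05).

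Of 22 measured genes of the mTORC1 and S6 kinase pathway 6 rose and 2 fell at 24 h, so that 36.4% were called, close to the 32.5% of all genes. Pdcd4, a translation inhibitor that S6 kinase inactivates, rose by 2.60 (adjusted p = 2.79e-11) and Sesn1, an inhibitor of mTORC1, by 2.19 (adjusted p = 2.49e-07). Eif4ebp1, which encodes a repressor of cap-dependent translation, fell by 1.84 (adjusted p = 1.68e-06) and Eif4e, the cap-binding factor gene, by 0.93 (adjusted p = 3.82e-07). In the Mdm2 and p53 arm of ribosomal stress 1 of 6 genes rose, Nop53 by 1.40 (adjusted p = 2.49e-11), and 1 fell, near the share of all genes. This was Myc, a driver of ribosome production, which fell by 2.12 (adjusted p = 1.4e-05).

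**Figure D4:**
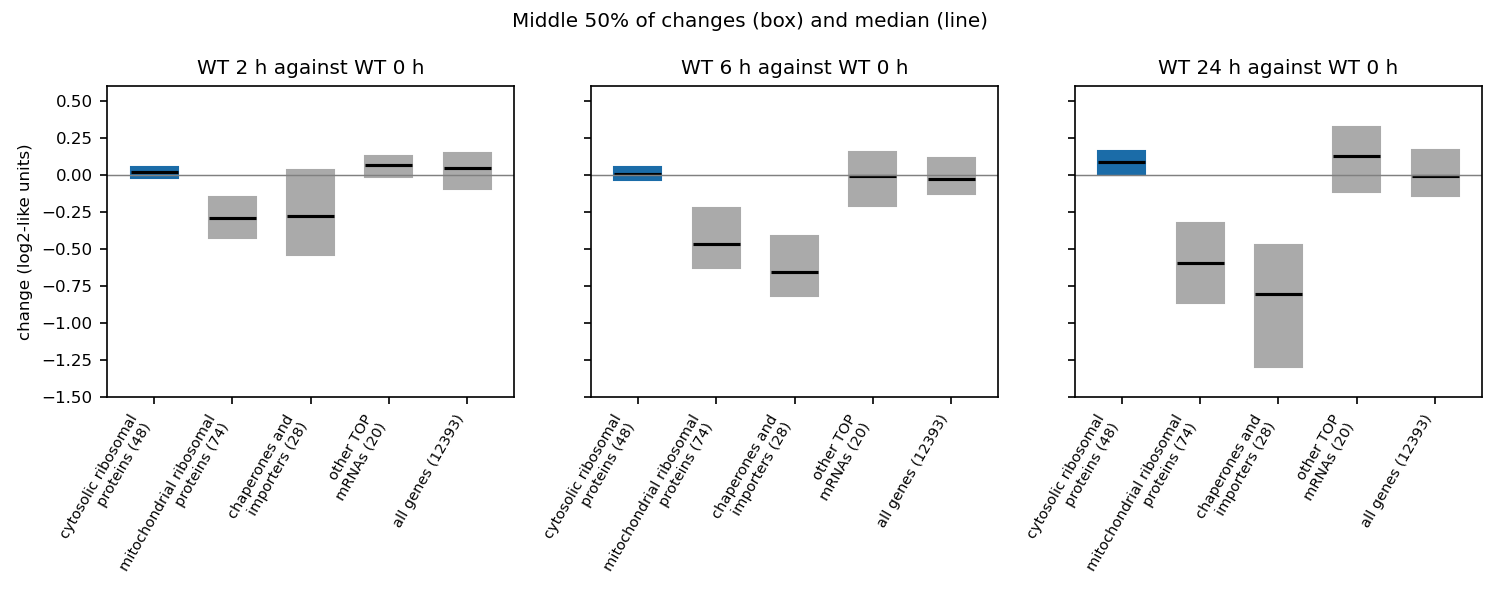
Changes in WT cells at 2, 6 and 24 h (panels left to right) for the 48 cytosolic ribosomal protein genes, 74 mitochondrial ribosomal protein genes, 28 chaperones and importers, 20 other TOP mRNAs and all 12393 genes; boxes span the middle 50% of the changes and lines are medians. At 24 h the medians were 0.08, −0.59, −0.80, 0.13 and −0.01.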

How the data were processed

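The authors deposited a single table of processed scores, 1 column per array. The authors' software and the scale of these deposited scores are not stated in the sources used here; with arrays, it is their number that bounds precision. Gene symbols came from the platform annotation. R 4.3.3 with limma 3.58.1 fitted 1 mean for each of 8 groups to the square root of each score (lmFit, then eBayes), with all 26 arrays and no covariate. Benjamini-Hochberg adjustment ran over all 22626 probe sets, with calls at 0.05. No filter on level was used, so all 48 genes were tested. The script was tested on simulated data.

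Named were the 10 called genes with the largest change in each comparison, the stalk proteins, Rpsa, Rps6, Rpl11, the paralogs with the genes they resemble, and of other lists the largest 2 calls each way. The genes, lists, tests and array sets were chosen with earlier results of these data known. Names ending in -ps were read as pseudogenes. Alternatives changed the power of the scores, normalization, a level filter, the array set as a term or alone, array weights, the groups fitted, the probe set per gene, the arrays included and a block for series of consecutive array numbers. Within these series residuals correlated by 0.23 to 0.70, and 22 of 24 arrays correlated best with their own series.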

Additional observations from a re-analysis of the deposited data

Results flagged for a closer look

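In untreated groups of 4 arrays, 54 tests asked whether 1 array stood far from the other 3, and chance gives such a result in about 1 of 20. Of the 3 found, array 44 of untreated Kin- cells was highest for Rpl19, at a level of 14.43, and lowest for Rpl7, at 14.95. Array 13 of untreated WT cells was highest for Rpl39, at 8.26.

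The responses of the lines differed in the limma test of the difference (WT response minus Kin- response) for these genes. At 6 h the differences were −1.99 for Rpl12, −0.57 for Rpl7l1 and −0.76 for Rps25. At 24 h they were 1.15 for Rpl3l, 0.22 for Rps20, −0.91 for Rps25 and 0.61 for Rps6.

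Outside the 48 genes, a probe set annotated jointly to Rpl13 and Tax1bp3 was higher by 2.08 in WT cells at 24 h (adjusted p = 2.81e-11), with 0.06 (adjusted p = 1) in Kin- cells. Its value cannot be given to either gene.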

How the results depend on the processing

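The main counts of called genes were 4, 6 and 13 in WT cells at 2, 6 and 24 h, 3 for WT 24 h against 6 h, 0 in each Kin- comparison and between the untreated lines, and 0, 3 and 4 for the difference of responses at 2, 6 and 24 h. Arrays 1 to 14 alone, with 1 array per treated group, gave 0, 0 and 2 for WT at 2, 6 and 24 h, 0 for 24 h against 6 h, and 0 and 1 for the differences at 6 and 24 h. Arrays 16 to 47 alone gave 9 for 24 h against 6 h and 1 and 7 for the differences at 2 and 24 h. The array set as a term gave 9 for 24 h against 6 h, 1 and 10 for the differences at 2 and 24 h, and 1 between the untreated lines. Array weights gave 21 for WT at 24 h, 18 for 24 h against 6 h, 1, 6 and 14 for the differences at 2, 6 and 24 h, and 1 between the untreated lines. The replicate block, by series of consecutive array numbers, gave 8 for 24 h against 6 h and 7 for the difference at 24 h and could not be fitted between the untreated lines. Fitting the compared groups alone gave 7 at 24 h, 1 for 24 h against 6 h and 1 for the difference at 2 h. A filter at the median level gave 1 for 24 h against 6 h, and quantile normalization gave 1 for the difference at 2 h. The mean over a gene's probe sets gave 6 for 24 h against 6 h and 6 for the difference at 6 h, probe sets free of _s and _x suffixes gave 6 for that difference too, and the second brightest probe set gave 2 for the difference at 2 h. The brightest probe set that lists a symbol alone or with others, an alternative chosen after seeing the data and with 75 probe sets, gave 2, 2 and 20 for WT at 2, 6 and 24 h, 8 for 24 h against 6 h, and 1 and 1 for the differences at 2 and 6 h. The other counts under these 14 alternatives were within 1.5 times the main ones, and power 0.75 and untransformed scores moved none beyond that.

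Leaving out 1 array gave between 0 and 4 calls for WT at 2 h (0 without WT 2 h array 37, and 2 without WT 0 h array 13 or WT 2 h array 17) and between 3 and 6 at 6 h (3 without WT 0 h array 13 or WT 6 h arrays 18 or 38). It gave between 8 and 14 at 24 h (8 without WT 24 h array 39), and between 1 and 5 for 24 h against 6 h (1 without WT 6 h arrays 18 or 38 or WT 24 h array 39, 5 without WT 6 h array 3). For the differences it gave between 1 and 4 at 6 h (1 without WT 6 h arrays 18 or 38), between 4 and 7 at 24 h (7 without WT 24 h array 4) and 0 at 2 h, and it gave 0 in the Kin- comparisons and between the untreated lines.

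Of 1317 values of single named genes under the alternatives, 1134 kept direction and call, 171 kept the direction without the call and 12 changed sign. The sign changes all came with another probe set for the gene. With the probe set that lists the symbol alone or with others, Rpl12 had 0.15, 0.053 and 0.088 in WT cells at 2, 6 and 24 h and a difference of 0.063 at 6 h, and Rps25 a difference of 0.0096 at 6 h. With probe sets free of _s and _x suffixes Rps9 had −1.56 and Rps24 −0.34 in WT cells at 24 h, and Rps20 a difference of −0.59 at 24 h. With the mean over probe sets Rps9 had −0.29 at 24 h and Rps20 a difference of −0.074, and with the second brightest probe set Rps6 had −0.064 at 6 h and −0.019 at 24 h. The cause was not tested. The unstated scale and the number of arrays limit all values.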
